A study of Mus musculus with 6 samples.

Results

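The 10 genes described here hold T cells in the resting, naive state, and were measured in stimulated cells with and without the chemokine CCL19. They are 7 transcription factors, Foxo1, Foxp1, Tcf7, Lef1, Bach2, Satb1 and Klf3, and 3 members of the BTG/TOB family of antiproliferative proteins, Tob1, Btg1 and Btg2. They were picked by gene symbol from general knowledge of naive T cells, with earlier results of these data known. All 10 were found among the 24470 genes of the count table. Naive CD4+ T cells, helper T cells with no earlier encounter with antigen, were purified on magnetic columns from male C57BL/6J mice (spleen together with lymph nodes that drain the skin), whose age the labels do not give. In 3 libraries, called CCL19 here, the cells received anti-CD3 and -CD28 antibodies, coated at 1 µg/mL, together with recombinant mouse CCL19 for 6 h. In the other 3, labelled NoCKN and called no CCL19 here, they received the antibodies alone for 6 h. All 6 libraries therefore come from stimulated cells, and unstimulated cells were not analysed here. CCL19 is a ligand of CCR7, the receptor that guides naive T cells into and through lymph nodes.

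A naive T cell stays small and undivided because it is actively kept so. FOXO1 holds on the genes for the interleukin-7 receptor and CCR7, and is shut out of the nucleus when AKT is active after receptor stimulation. TCF1, the product of Tcf7, and LEF1 are HMG-box factors that establish and maintain T cell identity and naive or memory-like potential. FOXP1 restrains the response to interleukin-7 and entry into the cell cycle, BACH2 represses effector programmes, SATB1 organises chromatin, and KLF3 is a repressor of the Krüppel-like family that includes KLF2. TOB1, BTG1 and BTG2 bind the CCR4-NOT complex, which shortens poly(A) tails, and thereby speed the decay of messenger RNA.

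The libraries held between 16978736 and 27429898 counts assigned to genes. Nothing in the sample descriptions says that replicates came from separate mice or cultures, so the p-values below reflect variation among these samples alone, and that variation may be technical. Genes that define T cells were high, with a summed level of 4651 to 4719 CPM (read counts scaled to library size, with TMM factors) over 11 markers with CCL19 and 4525 to 4845 without. The 10 B cell markers summed to 34.7 to 40.7 CPM with CCL19 and 37.8 to 44.7 CPM without, the 10 monocyte or macrophage markers to 13.4 to 17.2 and 12.1 to 19 CPM, and the 6 NK cell markers to 10.8 to 13.5 and 10 to 12.7 CPM. Fcgr1 and C1qb of the macrophage list and Ppbp and Gp9 of the platelet list had no count in any library. The summed levels of these B cell, macrophage and NK cell lists overlapped between the groups. The CD4+ T cell markers Cd4 and Zbtb7b summed to 637 to 695 CPM with CCL19 and 716 to 836 CPM without, and the 4 regulatory T cell markers, which include the activation gene Il2ra, to 376 to 476 and 256 to 330 CPM. Of the latter, only Il2ra had groups that did not overlap. It stood at 441, 386 and 336 CPM with CCL19, against 216, 288 and 290 CPM without. The part of the CD4+ or the regulatory T cell markers in the results below was not tested.

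All 10 genes passed the filter on low counts through their level in both groups. By length-scaled CPM (RPKM, per kilobase of merged exon, with lengths from GENCODE), the mean level over the 6 libraries was highest for Tcf7 at 469 and lowest for Klf3 at 16.2. Between them stood Btg2 at 171, Btg1 at 116, Lef1 at 58.5, Satb1 at 48.6, Bach2 at 43, Foxp1 at 32.3, Tob1 at 21.4 and Foxo1 at 17.8 RPKM. The 6-library ranges of Tcf7, Btg2, Btg1 and Lef1 did not touch one another. Those of Lef1 and Satb1 overlapped, as did those of Satb1 and Bach2, and those of Tob1, Foxo1 and Klf3 in sequence. Exon lengths depend on which isoforms the annotation joins, so this order is a description of these libraries with that annotation.

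With CCL19, 4 of the 10 genes stood lower by an amount that DESeq2 called, and edgeR's quasi-likelihood test called none. The 4 were Tob1 (0.722-fold), Klf3 (0.762-fold), Tcf7 (0.782-fold) and Lef1 (0.825-fold). Foxo1 stood at 0.861-fold and Btg1 at 0.919-fold without a call, and Satb1, Btg2, Foxp1 and Bach2 lay between 0.964-fold and 1.03-fold. At a Benjamini-Hochberg adjusted p under 0.05, DESeq2 called 5.6% of the 9613 genes to which it gave an adjusted p lower, and 6.55% higher. The authors' deposited table of changed genes names the same 4 as lower with CCL19, and lists 2.2% of all genes in that direction and 2.57% in the other. Every gene that DESeq2 called here is in that table, so the 2 sources are not independent of each other. edgeR called 0 genes (0%) in either direction among the 11666 tested, with a lowest adjusted p of 0.0505 shared by 361 genes, and limma-voom also called 0 (0%), with a lowest adjusted p of 0.051. At an unadjusted edgeR p under 0.05, 5 of the 10 were lower and none higher, against 13% and 14.5% of all tested genes. The groups did not overlap, with every CCL19 library the lower, in 5 of the 10, against 14.5% of all tested genes, and none had every CCL19 library the higher, against 15.3%. The log2 fold change was below 0 in 8 of the 10, against 50.2% of all tested genes. Among these 8, the values of Satb1 and Btg2 were smaller than their SE, which leaves their sign unsettled. The median log2 fold change of the 10 was -0.17, against -0.000744 over all tested genes. Since the 10 were picked with earlier results of these data known, these contrasts are descriptions. In bulk RNA, a smaller share of cells that express a gene and less of its RNA per cell cannot be told apart.

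**Figure D1:**
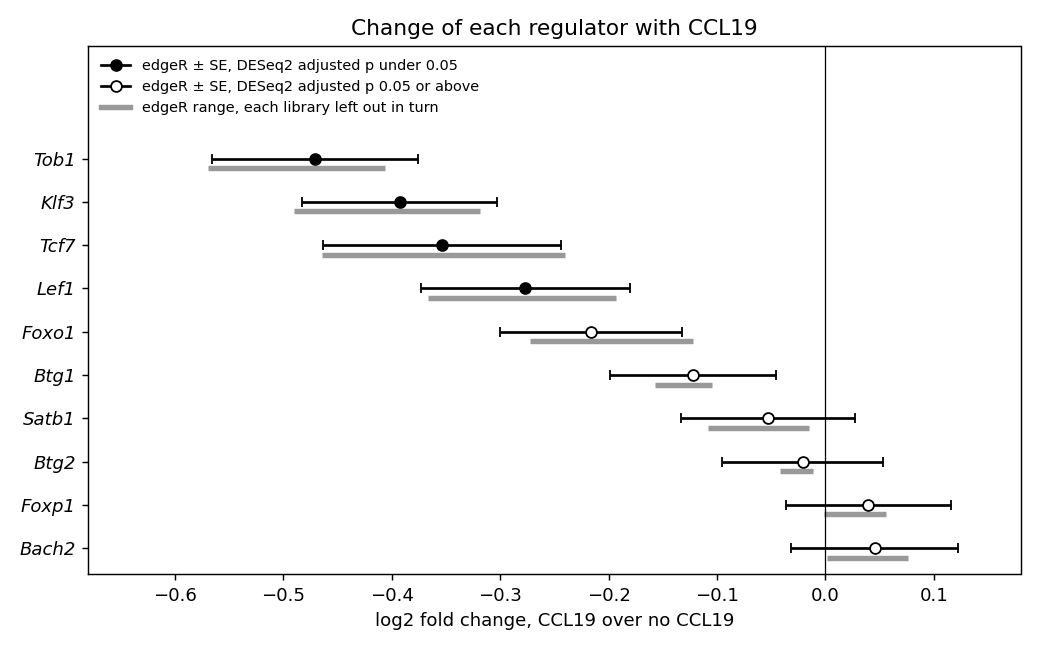
Log2 fold change with CCL19 over no CCL19 for each of the 10 genes (points, edgeR ± SE; 3 libraries per group), with the range obtained when each library is left out in turn (grey bars). Tob1, Klf3, Tcf7 and Lef1, the filled points, have an adjusted p under 0.05 in DESeq2 but not in edgeR.

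Among the antiproliferative genes, Tob1, whose product binds CCR4-NOT and poly(A)-binding protein and is lost from resting T cells as they activate, differed most. Tob1 (NCBI Gene 22057, mm10 chr11:94211454-94215495, plus strand) had 36.9, 40 and 46.1 CPM in the CCL19 libraries, replicates 1 to 3, against 61.8, 53.5 and 55.4 CPM in the libraries without CCL19. The groups did not overlap, and CCL19 replicate 3 was the closest to the other group. This gave means of 41 ± 4.68 CPM with CCL19 and 56.9 ± 4.36 CPM without (SD, n = 3 each) and a log2 fold change of -0.47 ± 0.09 (SE; edgeR adjusted p = 0.0505, DESeq2 adjusted p = 0.00242). Only 3.75% of tested genes had a lower log2 fold change. With 614 to 1496 reads per library, Tob1 was the least covered of the 10.

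Btg1 (NCBI Gene 12226, mm10 chr10:96617001-96622813, plus strand) had 584, 582 and 600 CPM with CCL19, against 657, 653 and 613 CPM without. These groups did not overlap either, but the distance was small, 589 ± 9.77 CPM with CCL19 against 641 ± 24.3 CPM without (SD, n = 3 each), and the log2 fold change of -0.12 ± 0.08 was not called (edgeR adjusted p = 0.32, DESeq2 adjusted p = 0.22). The Btg1 copies Btg1b and Btg1c had 0 counts in every library. Btg2 (NCBI Gene 12227, mm10 chr1:134074865-134079155, minus strand), an early target of p53 that is also induced by growth stimuli, had 462, 467 and 465 CPM with CCL19, against 473, 481 and 461 CPM without. The groups overlapped and the log2 fold change was -0.02 ± 0.07 (edgeR adjusted p = 0.886). Its levels spanned 0.063 on the log2 scale over all 6 libraries, the narrowest span of the 10, while those of Tob1 spanned 0.743, the widest.

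The ratio of Btg1 to Btg2 reads inside a library does not depend on scaling between libraries. Its log2 value was 0.34, 0.32 and 0.37 in the CCL19 libraries and 0.47, 0.44 and 0.41 in those without CCL19, a difference of -0.10. The groups did not overlap, and the exact permutation p was 0.1 (2-sided), the smallest that 3 against 3 libraries allow. The 3 ratios tested in this way had p-values of 0.1, 0.2 and 0.1, so none could pass a threshold of 0.05.

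**Figure D2:**
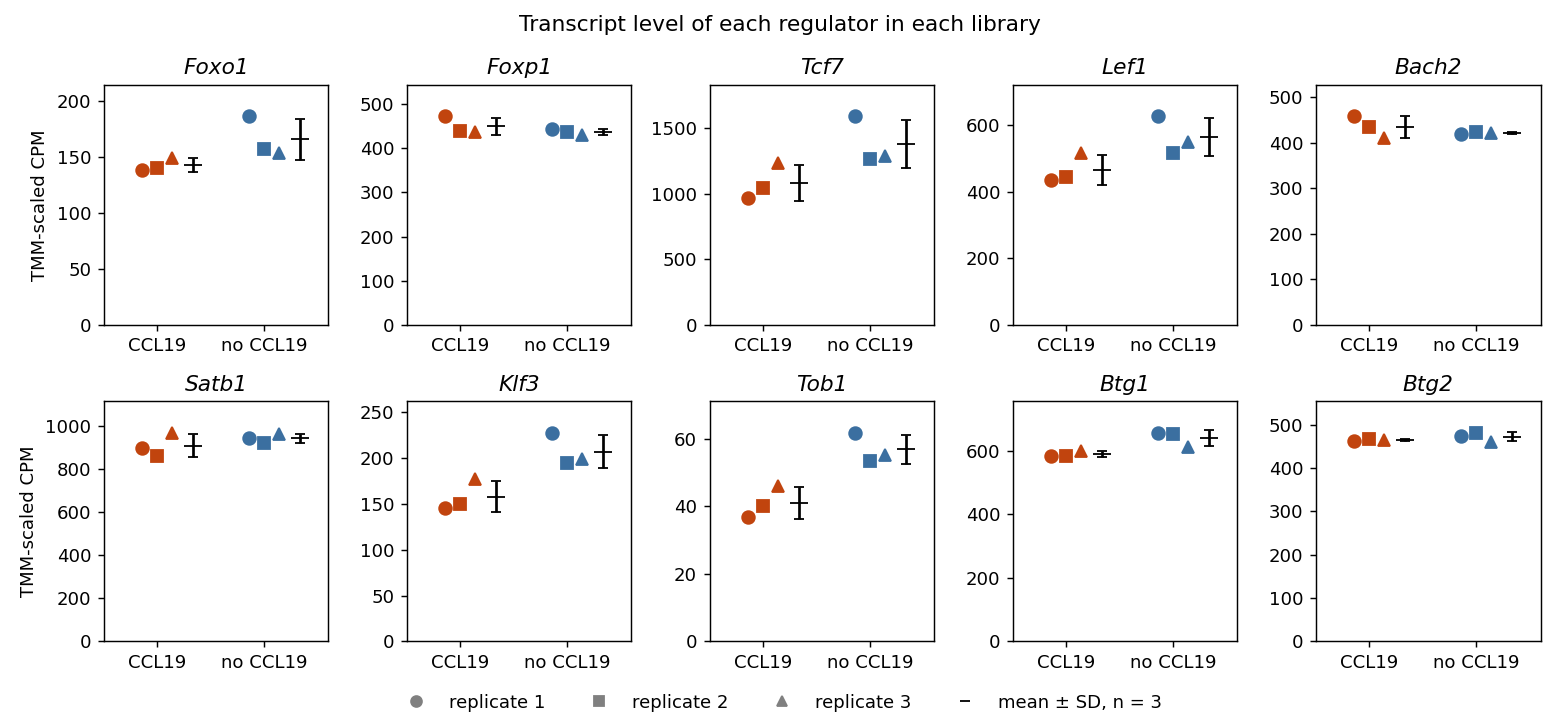
TMM-scaled CPM of the 10 genes in each library, CCL19 at left and no CCL19 at right, with replicate numbers as symbols and the mean ± SD (n = 3) beside the points; axes start at 0. The CCL19 points of Tob1, Klf3, Tcf7, Foxo1 and Btg1 lie wholly below the others, those of Lef1 overlap at one library, and those of Foxp1, Bach2, Satb1 and Btg2 overlap.

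Of the transcription factors, Klf3 stood lowest relative to the libraries without CCL19. Klf3 (NCBI Gene 16599, mm10 chr5:64803523-64830129, plus strand) had 146, 150 and 177 CPM with CCL19, against 228, 195 and 199 CPM without. The groups did not overlap. The means were 158 ± 16.9 and 207 ± 18 CPM (SD, n = 3 each), and the log2 fold change was -0.39 ± 0.09 (edgeR adjusted p = 0.0505, DESeq2 adjusted p = 0.00355).

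Tcf7 (NCBI Gene 21414, mm10 chr11:52252283-52283014, minus strand) had 970, 1043 and 1232 CPM with CCL19, against 1593, 1265 and 1290 CPM without. The groups did not overlap, but CCL19 replicate 3 came close to the lowest library without CCL19, and no CCL19 replicate 1 stood far above the rest of its group. The means were 1082 ± 135 and 1383 ± 182 CPM (SD, n = 3 each), with a log2 fold change of -0.35 ± 0.11 (edgeR adjusted p = 0.0722, DESeq2 adjusted p = 0.0154). Its relative Lef1 (NCBI Gene 16842, mm10 chr3:131110297-131224357, plus strand) had 434, 444 and 517 CPM with CCL19, against 627, 515 and 548 CPM without. Here the groups overlapped, because CCL19 replicate 3 stood just above no CCL19 replicate 2. The log2 fold change was -0.28 ± 0.10 (edgeR adjusted p = 0.0922, DESeq2 adjusted p = 0.0344). The log2 ratio of Tcf7 to Lef1 reads was 1.16, 1.23 and 1.25 with CCL19 and 1.35, 1.3 and 1.24 without, and the groups overlapped (difference -0.08, exact permutation p = 0.2, 2-sided).

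Foxo1 (NCBI Gene 56458, mm10 chr3:52268337-52350109, plus strand) had 138, 140 and 149 CPM with CCL19, against 186, 157 and 153 CPM without. The groups did not overlap, yet CCL19 replicate 3 and no CCL19 replicate 3 lay close together. The log2 fold change of -0.22 ± 0.08 passed in neither test (edgeR adjusted p = 0.119, DESeq2 adjusted p = 0.0901), and it was -0.12 without no CCL19 replicate 1. FOXO1 is controlled largely by phosphorylation and export from the nucleus, which RNA counts do not measure. Foxp1 (NCBI Gene 108655, mm10 chr6:98925342-99435345, minus strand) had 473, 440 and 437 CPM with CCL19, against 445, 438 and 431 CPM without, with a log2 fold change of 0.04 ± 0.08 (edgeR adjusted p = 0.771). The sign of that value turned without CCL19 replicate 1, to -0.0014 in edgeR. The log2 ratio of Foxo1 to Foxp1 reads was -1.78, -1.65 and -1.55 with CCL19, against -1.25, -1.48 and -1.49 without, with no overlap (difference -0.25, exact permutation p = 0.1, 2-sided).

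Bach2 (NCBI Gene 12014, mm10 chr4:32417435-32586108, plus strand) had 458, 433 and 411 CPM with CCL19, against 419, 422 and 421 CPM without. The CCL19 libraries lay on both sides of the others, and the log2 fold change was 0.05 ± 0.08 (edgeR adjusted p = 0.74). Without CCL19 replicate 1 it was 0.0017, and without CCL19 replicate 3 it was 0.08. Satb1 (NCBI Gene 20230, mm10 chr17:51736187-51833290, minus strand) had 896, 861 and 968 CPM with CCL19, against 945, 919 and 963 CPM without, with a log2 fold change of -0.05 ± 0.08 (edgeR adjusted p = 0.703). It was -0.02 without CCL19 replicate 2 and -0.11 without CCL19 replicate 3. For both, the spread was wider with CCL19, 434 ± 23.4 against 421 ± 1.87 CPM for Bach2 and 908 ± 54.7 against 943 ± 22.2 CPM for Satb1 (SD, n = 3 each). Whether the spreads differ was not tested.

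Exons of other annotated genes overlap some of these genes. Antisense transcripts cover 13.7% of the merged exons of Lef1, 7.78% of Foxo1, 5.4% of Bach2 and 3.59% of Klf3. How the counting treated strand is not stated in the labels or notes, so reads from such pairs cannot be told apart. Bach2os, the antisense gene of Bach2, had 0 to 2 counts per library in its own row.

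A group of 5 genes, picked after their values were seen, ran together across libraries. For Foxo1, Tcf7, Lef1, Klf3 and Tob1 alike, CCL19 replicate 1 was the lowest library and no CCL19 replicate 1 the highest. For the same genes, CCL19 replicate 3 lay nearest to the libraries without CCL19, at -0.06 to 0.02 from each gene's mean over the 6 libraries on the log2 scale. Pearson's r of log2 CPM between pairs of these 5 genes lay between 0.897 and 0.993 over the 6 libraries, which include the difference between groups and share depth and scaling. Btg1, which also stood lower in every CCL19 library, had its lowest value in CCL19 replicate 2 and correlated with the 5 at r between 0.811 and 0.895. Foxp1 and Bach2 followed another course, with CCL19 replicate 1 the highest library for both and r = 0.874 between them.

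**Figure D3:**
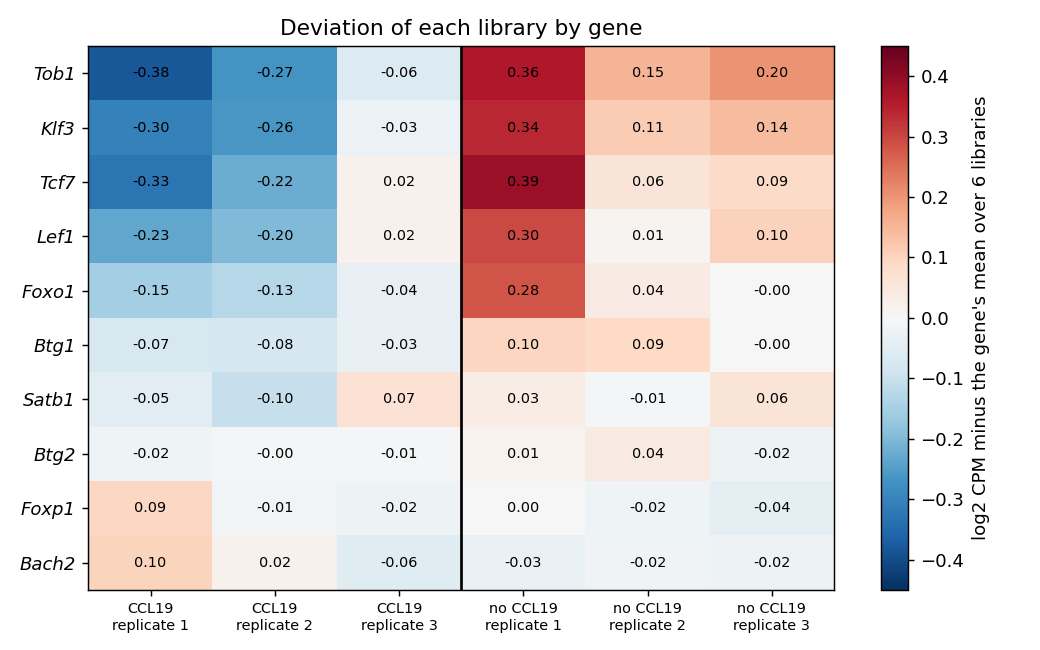
Deviation of each library (columns) from the gene's mean over the 6 libraries, in log2 CPM, for the 10 genes ordered by log2 fold change (rows); blue is below and red above the mean. The 5 uppermost rows run together, lowest in CCL19 replicate 1 and highest in no CCL19 replicate 1.

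How many of the 10 were called depended on single libraries. DESeq2 called 4 of the 10 lower with all libraries, and also without CCL19 replicate 3 or no CCL19 replicate 2. It called 3 without no CCL19 replicate 3, when the Lef1 adjusted p was 0.0561. It called only Tob1 without CCL19 replicate 1 (DESeq2 adjusted p = 0.0499) or CCL19 replicate 2 (DESeq2 adjusted p = 0.0489), and only Klf3 without no CCL19 replicate 1 (DESeq2 adjusted p = 0.0445), when DESeq2 gave Tob1 no adjusted p. edgeR made no call with all 6 libraries, but called Tcf7, Lef1, Klf3 and Tob1 lower without CCL19 replicate 3, and Klf3 and Tob1 without no CCL19 replicate 3. With each library left out, the edgeR log2 fold change stayed between -0.57 and -0.41 for Tob1, between -0.49 and -0.32 for Klf3, between -0.46 and -0.24 for Tcf7 and between -0.37 and -0.19 for Lef1.

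Fold changes in these libraries ran with base composition, with a Spearman's rho of -0.312 for log2 fold change against the GC content of transcripts across 11603 genes, which are not independent replicates. Tob1, Klf3 and Lef1 had transcripts of 45.7%, 45.7% and 46.1% GC, in classes of tested genes whose median log2 fold changes were 0.06, 0.06 and 0.03. Tcf7, at 52.3% GC, lay in a class with a median of -0.03. Once GC content and length entered edgeR as an offset, the log2 fold change was -0.51 for Tob1, -0.43 for Klf3, -0.31 for Lef1 and -0.32 for Tcf7, with edgeR adjusted p between 0.0932 and 0.106 for all 4. It was -0.19 for Btg1, -0.09 for Satb1 and 0.0001 for Foxp1, each over 1.5 times away from the value without the offset, and none was called. No other test of base composition was made.

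By Pearson's r of log2 CPM over 6 libraries, with 9875 candidates per gene, Tob1 was closest to Jmy (0.999) and Arl4c (0.999), Klf3 to Cep164 (0.998) and Capn2 (0.998), Tcf7 to Snx30 (0.999) and Trpv2 (0.998), Lef1 to Trpc4ap (0.9998) and the TGF-beta receptor gene Tgfbr2 (0.999), and Foxo1 to Smim14 (0.997) and Trim62 (0.995). These genes were picked for their likeness over the same 6 libraries, which fixes their direction between the groups, and the r values are the highest of a wide search. Btg1 was closest to Iffo1 (0.995) and Zfp414 (0.995), Btg2 to Zfp408 (0.989) and Rnf220 (0.986), Satb1 to Pias1 (0.983) and Snx14 (0.98), Foxp1 to Txndc11 (0.985) and Taf11 (0.974), and Bach2 to the nucleoporin gene Nup214 (0.992) and Polr2a (0.987), which encodes the largest subunit of RNA polymerase II.

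The 6 lists of related genes, written from general knowledge, show what surrounded the 10. edgeR called no gene of any list, so the counts below are of DESeq2 calls among the list genes that received an adjusted p from it. Over all 9613 such genes, DESeq2 called 5.6% lower and 6.55% higher. Of 23 family relatives, 18 passed the low-count filter and 14 received an adjusted p from DESeq2, which called 2 lower and none higher (all genes: 5.6% and 6.55%), with a median log2 fold change of -0.11. The called ones were Klf2, the quiescence and homing factor (386 ± 25.9 with CCL19 against 576 ± 62.2 CPM without, log2 fold change -0.58 ± 0.09, edgeR adjusted p = 0.0505), and Foxo4 (39.4 ± 8.12 against 52 ± 6.57 CPM, -0.40 ± 0.13, edgeR adjusted p = 0.0811; SD, n = 3 each). Klf11 (-0.44) and Klf7 (-0.35) were not called. Values of the 18 relatives ran from -0.58 to 1.18, with 10 below 0. At an unadjusted edgeR p under 0.05, 5 were lower and 1 higher, against 13% and 14.5% of all tested genes. The log2 fold change was 0.14 for Tob2, opposite in sign to that of Tob1, and -0.14 for Foxo3, of the same sign as Foxo1. It was 0.09 for Foxp4 and 0.16 for Bach1, while the values of Foxp1 and Bach2 were smaller than their SE, which leaves their sign unsettled. None of these relatives was called.

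The FOXO1 list holds 24 genes taken, from general knowledge, to depend on or be bound by FOXO1. Whether they do so in these cells was not tested. All 24 passed the low-count filter and 23 received an adjusted p from DESeq2. The list includes Tcf7 and Lef1 themselves, and it overlaps the other lists. DESeq2 called 8 lower and 0 higher (all genes: 5.6% and 6.55%), with a median log2 fold change of -0.24 and 20 of 24 values below 0, against 50.2% of all tested genes. Beside Klf2, Tcf7 and Lef1 they included Cdkn1b, which encodes the cell cycle inhibitor p27 (136 ± 14.2 with CCL19 against 176 ± 18.5 CPM without, log2 fold change -0.37 ± 0.09), Pik3ip1, an inhibitor of phosphoinositide 3-kinase (144 ± 21.5 against 193 ± 26.1 CPM, -0.42 ± 0.11), and the receptor gene Ccr7 (358 ± 25.3 against 445 ± 58.1 CPM, -0.32 ± 0.10; SD, n = 3 each). Il7r, encoding the interleukin-7 receptor (-0.26), was not called. Bcl2 stood at 0.01.

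Of the 20 tested partners and Wnt-type targets of TCF1 and LEF1, out of 24 listed symbols, DESeq2 gave an adjusted p to all 20 and called 4 lower and none higher (all genes: 5.6% and 6.55%), with a median log2 fold change of -0.13. They were the coactivator gene Bcl9l (104 ± 2.51 with CCL19 against 147 ± 23.8 CPM without, -0.50 ± 0.10), Tle5, which encodes a short corepressor of the Groucho family (252 ± 26.7 against 330 ± 29.8 CPM, -0.39 ± 0.09), Ccr7 and Actn1 (-0.29 ± 0.10; SD, n = 3 each). Ctnnb1, which encodes beta-catenin, had a log2 fold change of 0.02 and was not called. In 12 of the 20 the log2 fold change was below 0, against 50.2% of all tested genes. Among the list genes named here with values below 0, Klf2 (61.6% GC), Bcl9l (60.1%) and Zbtb7b (59.9%) had transcripts in the class of tested genes with the lowest median log2 fold change, -0.15, and Tle5 (57.4%) and Runx3 (55.9%) in the next, at -0.11. Among list genes named below with values above 0, Caprin1 (42% GC), Il2ra (44.4%) and Irf4 (47.6%) lay in classes with medians of 0.08, 0.06 and 0.03. Prmt1 (54.7%) lay in a class with a median of -0.07. The part of GC content in any of these values was not tested.

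The next list holds 22 genes taken, from general knowledge, to be restrained by BACH2 or to encode its MAF partners. Whether BACH2 restrains them in these cells was not tested. All 22 passed the low-count filter but only 15 received an adjusted p from DESeq2. DESeq2 called 2 higher and 0 lower (all genes: 6.55% and 5.6%), with a median log2 fold change of 0.07. They were Il2ra, the interleukin-2 receptor alpha chain (388 ± 52.6 with CCL19 against 265 ± 42 CPM without, 0.55 ± 0.12, edgeR adjusted p = 0.0505), and Irf4, a transcription factor induced in proportion to receptor signal (1033 ± 159 against 739 ± 107 CPM, 0.48 ± 0.12, edgeR adjusted p = 0.0505; SD, n = 3 each). Runx3 (-0.23) was not called, and S100a6 (-0.93) was near 1 CPM and received no adjusted p from DESeq2. Prdm1, encoding the effector factor BLIMP1, stood at -0.20 without a call. At an unadjusted edgeR p under 0.05, 4 of the 22 were higher and 3 lower, against 14.5% and 13% of all tested genes. In 9 of the 22 the log2 fold change was below 0, against 50.2% of all tested genes.

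Of 22 tested genes for CCR4-NOT and poly(A) proteins, the machinery that TOB1, BTG1 and BTG2 engage, DESeq2 called 1 higher and 1 lower, with a median log2 fold change of 0.09. These counts are near the shares over all genes, 6.55% higher and 5.6% lower. The lower one was Zfp36l2, which encodes a protein that binds AU-rich elements (308 ± 4.49 with CCL19 against 414 ± 63 CPM without, -0.43 ± 0.10), and the higher one Caprin1, which encodes an RNA-binding protein of cytoplasmic granules (528 ± 43.9 against 429 ± 51.3 CPM, 0.30 ± 0.10; SD, n = 3 each). The deadenylase genes Cnot7 (0.19) and Cnot8 (-0.04) and the scaffold Cnot1 (0.09) were not called, nor were Prmt1 (0.24) and Cnot9 (0.21). At an unadjusted edgeR p under 0.05, 7 of the 22 were higher and 2 lower, against 14.5% and 13% of all tested genes. The log2 fold change was below 0 in 8 of the 22, against 50.2% of all tested genes.

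Of 40 other quiescence regulators, all passed the low-count filter and 38 received an adjusted p from DESeq2, which called 8 lower and 1 higher (all genes: 5.6% and 6.55%), with a median log2 fold change of -0.08. Beside Klf2, Zfp36l2 and Cdkn1b the lower ones included Mxd4, a MAX-binding antagonist of MYC (23.9 ± 2.73 with CCL19 against 34.3 ± 6.15 CPM without, -0.52 ± 0.12), and Zbtb7b, the helper lineage factor (99.8 ± 4.11 against 126 ± 14.1 CPM, -0.34 ± 0.08; SD, n = 3 each). The higher one was the phosphatase gene Ptpn22 (0.31). Tsc1 (-0.07), Tsc2 (-0.06), Slfn2 (0.02) and Runx1 (0.24), each linked to quiescence, were not called. In 24 of the 40 the log2 fold change was below 0, against 50.2% of all tested genes. These lists were written with earlier results of these data known.

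**Figure D4:**
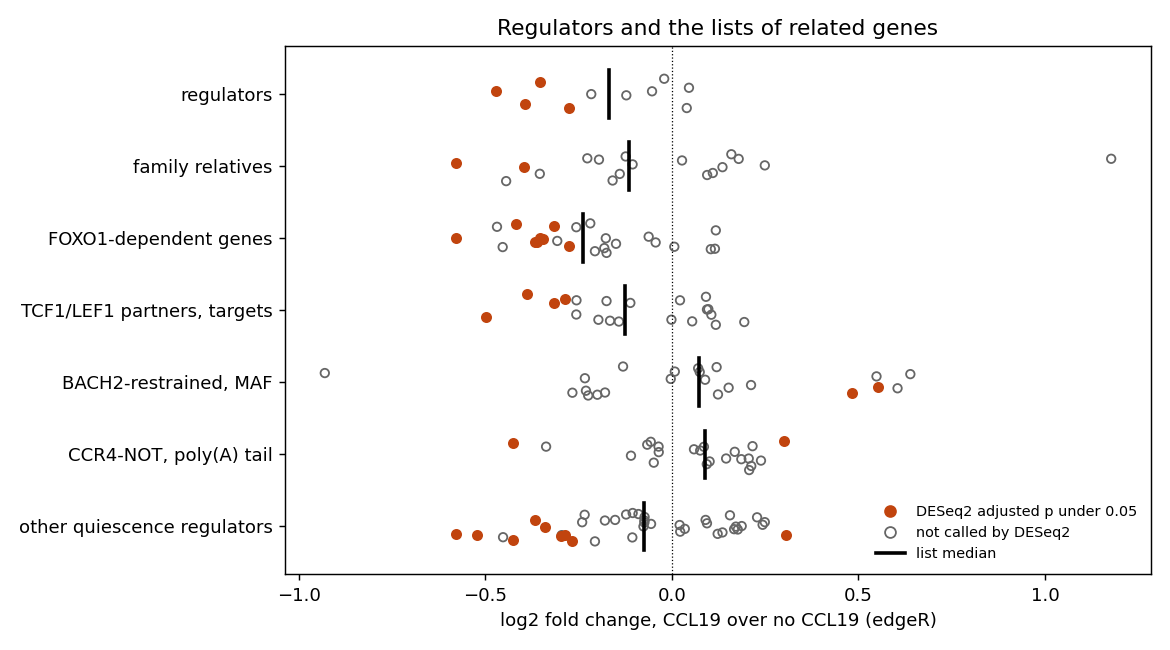
Log2 fold change with CCL19 over no CCL19 (edgeR) for each tested member of the 10 regulators and of the 6 related lists, with the list median as a bar and DESeq2 calls filled. The median is -0.17 for the regulators and -0.24 for FOXO1-dependent genes, and 0.09 for CCR4-NOT and poly(A) genes.

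The stretches before the transcription starts of the 2 genes that differed most, Tob1 and Klf3, and of 2 with motif matches, are shown as sequence, since members that stood lower together could be compared in their promoters. RefSeq gave 20 windows for the 10 genes, all matched by symbol, on GRCm38.p6, the assembly that mm10 names. Each window holds 250 bases before and 50 after a start, and the 250 before it are printed, 5′ to 3′ on the gene's strand, with motif matches in capitals, which show the reverse complement of the motif except for the E-box.
Tob1, chr11:94211204-94211453, plus strand: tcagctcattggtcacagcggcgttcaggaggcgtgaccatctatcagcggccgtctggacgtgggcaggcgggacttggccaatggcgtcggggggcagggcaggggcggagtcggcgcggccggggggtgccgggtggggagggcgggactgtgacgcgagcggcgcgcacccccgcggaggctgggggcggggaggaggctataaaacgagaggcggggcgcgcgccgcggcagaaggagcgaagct
Klf3, chr5:64803271-64803520, plus strand: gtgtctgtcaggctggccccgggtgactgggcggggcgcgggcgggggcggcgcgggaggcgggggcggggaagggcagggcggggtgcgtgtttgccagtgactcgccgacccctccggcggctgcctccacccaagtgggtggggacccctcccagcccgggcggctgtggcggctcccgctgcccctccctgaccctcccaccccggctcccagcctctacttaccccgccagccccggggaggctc
Lef1, an internal start, chr3:131156044-131156293, plus strand: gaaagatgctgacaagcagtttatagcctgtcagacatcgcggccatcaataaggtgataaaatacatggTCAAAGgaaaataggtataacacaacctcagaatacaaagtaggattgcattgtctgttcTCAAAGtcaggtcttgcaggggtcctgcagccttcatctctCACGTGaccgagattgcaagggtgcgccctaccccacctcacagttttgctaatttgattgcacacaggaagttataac
Btg1, chr10:96616751-96617000, plus strand: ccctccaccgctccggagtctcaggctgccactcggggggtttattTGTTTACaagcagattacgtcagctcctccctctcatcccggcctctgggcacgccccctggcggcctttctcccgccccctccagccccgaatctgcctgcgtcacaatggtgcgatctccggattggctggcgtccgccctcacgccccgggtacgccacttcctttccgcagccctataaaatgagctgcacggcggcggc
The 5 motifs were searched on both strands in all windows. GTAAACA, the FOXO core, was present for Btg1 and Tcf7, 2 of 10 genes, against 4.05% of all 27025 genes. CTTTGA, the TCF/LEF core, was present for Bach2, Foxp1 and Lef1, 3 of 10, against 18.2%, and Lef1 held it 2 times at its internal start, beside CACGTG, the E-box, which 1 of 10 held against 8.09%. CCACACCC, a KLF-type box, was present for Tcf7, 1 of 10, against 4.09%, and TGANTCA, the AP-1 site, for 0 of 10, against 8.97%. The windows of Tob1 and Klf3, with 73.6% and 78.4% GC in the 250 bases printed, held none of the 5. Both Tcf7 matches lay in the window of an internal start, the FOXO one just after that start, and the Foxp1 match lay before an internal start. Genes with several windows, such as Satb1 and Lef1, had more chances of a match, and a match is a description of letters.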

How the data were processed

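RNA was counted in 3 libraries with CCL19 and 3 without, grouped by sample titles and treatments. Per the submitters' processing notes, the tools were STAR 2.5 for alignment, featureCounts 1.5.0-p1 of Subread for counting and DESeq2 1.28.1, with the build mm10. A TruSeq kit was used for the libraries, per the labels' protocols. The authors deposited raw read counts per gene as whole numbers, per the file headers. The handling of strand and of reads with several matches, and the annotation release, are not stated there. The authors' deposited list of changed genes gives a direction in words.

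Genes kept by filterByExpr (11666 of 24470) were scaled by TMM and tested by the quasi-likelihood method of edgeR 4.0.16 (R 4.3.3). Adjustment was by Benjamini-Hochberg over all of them at a threshold of 0.05. DESeq2 1.42.0 and limma 3.58.1 (voom) were alternatives. CPM carry the TMM scaling. A prior count of 2 entered log2 CPM for correlations, but not the deviations from a gene's mean over the 6 libraries or the log2 spans. Log2 fold changes come from edgeR. Their SE was derived as the absolute log2 fold change over the square root of the F statistic. Exon lengths, transcript GC content (99.5% of tested genes) and overlaps came from GENCODE M21 on GRCm38. Tests were tried on simulated counts. The text names the 10 regulators, 2 genes most like each, and up to 4 genes of smallest p per list, and other list members named were chosen after their values were seen. The regulators, lists and tests were chosen with earlier results of these data known. Other alternatives were scaling, filters, a robust prior, a replicate block, an offset for GC content and length, thresholds and each library left out. Read counts carry counting error and replicate spread, so precision rests on 3 libraries a group. Plots used matplotlib 3.10.9 (Python 3.11.15).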

Additional observations from a re-analysis of the deposited data

How the results depend on the processing

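Each of the 10 genes was recomputed under 20 alternatives. Of these 200 values, 168 kept their direction and stayed uncalled as in edgeR, 30 kept their direction and became called, all of them lower and all for Tcf7, Lef1, Klf3 or Tob1, and 2 turned sign, Foxp1 without CCL19 replicate 1 (-0.001371 in edgeR, where leaving out each library gave values up to 0.05596, and -0.000478 in DESeq2). edgeR with DESeq2 size factors, a 1 CPM minimum in 3 or more libraries, an offset for GC content and length, the replicate block and a threshold of 0.01 called 0 genes higher and 0 lower, among all genes and among the 10, as did limma-voom. Under the replicate block the edgeR adjusted p was 0.162 for Klf3 and Tob1, 0.174 for Tcf7 and 0.185 for Lef1. Deviations from group means correlated at -0.164, 0.0814 and -0.0207 between same-numbered libraries, and at -0.214 to 0.217 between differently numbered ones. Such deviations cancel within each group, so these correlations cannot settle whether the numbers pair the libraries.

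With DESeq2, 630 genes were called higher and 538 lower, 4 of the 10 lower, 2 family relatives, 8 FOXO1-dependent genes and 4 TCF1/LEF1 partners lower, 2 BACH2-restrained genes higher, 1 CCR4-NOT list gene each way, and 1 quiescence regulator higher and 8 lower. Without the low-count filter, edgeR called 803 higher and 797 lower, 4 of the 10 lower, 4 relatives, 9 FOXO1-dependent genes and 4 partners lower, 3 BACH2-restrained genes higher, 1 CCR4-NOT list gene each way, and 1 quiescence regulator higher and 9 lower. With a robust prior it called 267 higher and 262 lower, 2 of the 10, 1 relative, 3 FOXO1-dependent genes, 2 partners, 1 CCR4-NOT list gene and 5 quiescence regulators lower, and 2 BACH2-restrained genes higher. A threshold of 0.1 gave 889 higher and 806 lower, with 4 of the 10 lower. The cause of these differences between settings was not tested.

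Leaving out each library in turn, in edgeR and DESeq2, gave between 0 and 905 genes higher and between 0 and 827 lower, and between 0 and 4 of the 10 lower. By DESeq2, the counts higher and lower were 20 and 35 without CCL19 replicate 1, 56 and 67 without replicate 2 and 905 and 799 without replicate 3, and 60 and 45, 604 and 406, and 709 and 549 without no CCL19 replicates 1, 2 and 3. By edgeR they were 772 and 827 without CCL19 replicate 3, 235 and 278 without no CCL19 replicate 3, and 0 otherwise. In edgeR alone it gave 0 to 4 relatives, 0 to 12 FOXO1-dependent genes, 0 to 6 partners, 0 to 1 BACH2-restrained genes, 0 to 1 CCR4-NOT list genes and 0 to 12 quiescence regulators lower, and 0 to 3 BACH2-restrained genes, 0 to 1 CCR4-NOT list genes and 0 to 3 quiescence regulators higher. The highest of these edgeR counts came without CCL19 replicate 3. The least covered of the 10, Tob1, had 614 reads in its lowest library.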
